A study of Mus musculus with 12 samples.

Results

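T cells change gene expression as thymic precursors of intraepithelial lymphocytes (IELp) become CD8aa cells, and this change, called a step here, was compared between a control line and a line that lost the transcription factor LRF in T cells (KO). The genes described are those whose step differed between the lines, or ran in opposite directions in them. All 12 of 12 libraries of the series entered 1 fit of 4 groups, with 3 libraries in each. The difference of steps is the log2 change from precursor to CD8aa cell in the KO line minus that in the control line. Of 15757 genes tested, 7353 had a different step (quasi-likelihood test of edgeR, with the Benjamini-Hochberg adjusted p under 0.05), and 1059 of these reversed, with each line's own step past the threshold and of opposite sign.

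Mice were C57BL/6, and both lines carried floxed Lrf alleles (lrffl/fl). Controls lacked Cd4 Cre, so no group carried the recombinase without the floxed alleles, and the KO line was Cd4 Cre+. Cd4 Cre is active from the developing T cell on. Each sample held 40000 sorted cells. IELp were sorted from the thymus as TCRb+ cells without CD4, CD8a or CD44, with H-2Kb and CD122, and with high CD5 and PD-1. CD8aa cells were sorted as CD45+TCRb+ cells with CD8a and without CD4 or CD8b, from intraepithelial lymphocytes (IELs) in the control line and from spleen in the KO line. Tissue and genotype therefore cannot be told apart in any difference of steps, although the series title calls the progeny IELs. Age, sex, and whether samples came from separate animals are not given in the labels, so p-values measure the spread between samples, which may be technical.

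Agonist selection is the background to this comparison. Thymocytes that meet self antigen strongly can shut off both coreceptors, leave the thymus as IELp and settle among the epithelial cells of the gut, where they take up CD8aa homodimers, the integrin that binds E-cadherin and a granule-based killing program. T cells that circulate through spleen and lymph nodes instead keep CCR7 and the sphingosine 1-phosphate receptor S1PR1, which KLF2 helps to maintain. LRF, encoded by Zbtb7a, is a zinc finger repressor known for its part in the helper T cell lineage.

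Between 13432598 and 19947734 gene counts made up a library, and levels are given as counts per 1000000 of these (CPM). Control IEL replicate 3 differed most from its group (chi-square per degree of freedom up to 18.2, against 4.30 for the closest pair), and without it 3988 genes had a higher and 3540 a lower step in the KO line. Zbtb7a itself was read at 77, 68.5 and 80.7 CPM in control IELp, 114, 119 and 101 in control IELs, 50.8, 43.8 and 42 in KO IELp and 61.4, 59.1 and 63.4 in KO splenocytes. It was lower in every KO library than in every control library of the same stage (exact 2-sided permutation test, p = 0.1 at each stage, the smallest that 3 against 3 allow), and which exons were deleted is not given in the sources used here. Its step was 0.82 ± 0.09 in the control line and 0.54 ± 0.09 in the KO line (log2 ± SE), and the difference of -0.28 ± 0.13 missed the threshold (adjusted p = 0.0879). Cd8a averaged 18.7 and 46.5 CPM in control and KO IELp, 2508 in control IELs and 838 in KO splenocytes, and group means of Cd8b1 and Cd4 reached no more than 6.18 and 7.42 CPM. Summed B and plasma cell markers ran from 1611 to 1768 CPM in KO splenocytes, against 543 to 889 in the other 9 libraries. The largest term was Ighm, which averaged 1139 CPM in KO splenocytes and 417 to 548 in the other groups. Ms4a1 and Cd79a averaged 12.6 and 11.5 CPM in KO splenocytes and at most 0.684 in every other group. Igha went the other way, at 159 CPM in control IELs and 0.174 in KO splenocytes. Sdc1 was highest in KO IELp, at 67.7 CPM against 6.73 in KO splenocytes. Summed gut epithelial markers ran from 157 to 360 CPM in control IELs, highest in replicate 3, and from 12.7 to 18.6 in KO splenocytes, with Epcam, which the precursors also contained, as the largest term. Summed gamma delta T cell markers ran from 2326 to 2508 CPM in control IELs and from 465 to 474 in KO splenocytes, while Trdc averaged 8.63 and 15.7 CPM. Myeloid markers summed to 422 to 541 CPM in control IELs and to 138 to 171 in KO splenocytes, mostly Tyrobp, an adaptor that NK-like T cells share. Single myeloid markers went both ways. Lyz2 averaged 12.3 CPM in KO splenocytes and 0.0724 in control IELs, C1qb 5.31 and 0, Adgre1 2.48 and 0, and Csf1r 37.0 and 21.2. Itgam averaged 0.678 CPM in KO splenocytes and 29.3 in control IELs, Fcgr3 1.43 and 53.6, and Cd68 4.31 and 7.70. The platelet genes Ppbp and Pf4 averaged 8.0 and 6.73 CPM in KO splenocytes and 0 in every other group. The part of these cells in the results was not tested.

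**Figure D1:**
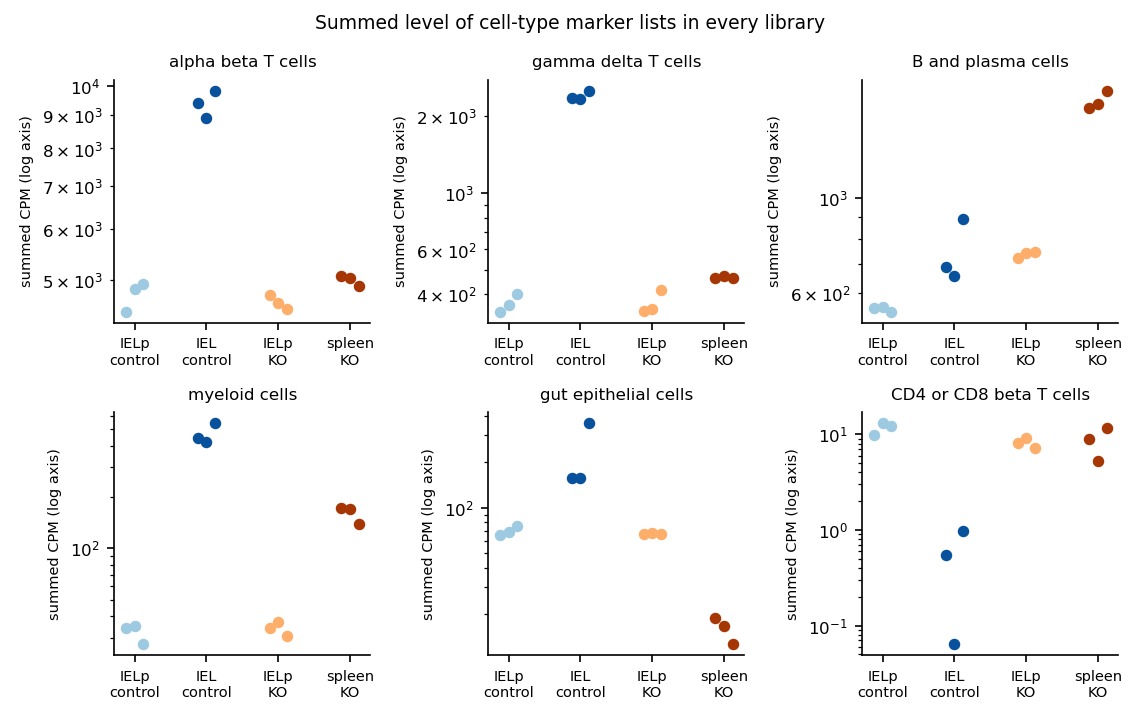
Summed CPM (log axis) of 6 cell-type marker lists in each of the 12 libraries, 1 point per library, by group. Gut epithelial markers sit at 157 to 360 CPM in the control IELs and at 12.7 to 18.6 in the KO splenocytes. B and plasma cell markers, with Ighm as the largest term, sit at 1611 to 1768 CPM in the KO splenocytes, above the 9 other libraries.

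The divergence was broad and ran both ways. The step was higher in the KO line for 3809 genes (24.2% of those tested) and lower for 3544 (22.5%), and by at least 2-fold for 2049 (13%) and 1580 (10%). In the control line 5091 genes rose (32.3%) and 5143 fell (32.6%), while in the KO line 3191 rose (20.3%) and 3270 fell (20.8%). The median absolute step was 0.61 log2 in the control line and 0.33 in the KO line. Across the 15757 genes the steps correlated with Pearson's r = 0.41 and Spearman's rho = 0.39, a description over genes, which are not independent replicates, of steps that share no library.

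Reversal made up the smaller share of the divergence. There were 512 genes that rose in the control line and fell in the KO line (3.25% of those tested) and 547 that fell in the control line and rose in the KO line (3.47%). Both steps were at least 2-fold in 111 and 145 genes. In 819 of these 1059 genes the precursor and CD8aa libraries overlapped in neither line. Tests on the same libraries chose the genes, and no share over all tested genes is given, so this count adds no support. A larger group moved in the control line alone: 1725 genes rose there, did not pass in the KO line and had a different step, and 1744 fell there in the same way. Another 1601 genes moved the same way in both lines with a larger control step, against 283 with a larger KO step.

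These counts depend on how libraries are scaled. With total counts alone in place of TMM factors the median difference of steps moved by 0.14 log2, and 63.6% of calls were higher in the KO line (4745 higher, 2721 lower) against 51.8% in the main fit. On the deposited FPM values with limma 61.6% were higher. Of the 512 genes that rose then fell, 331 were in that class with total counts and 325 with limma on log2(FPM + 1), and of the 547 that fell then rose, 413 and 406. A test against a 1.5-fold difference called 1994 genes higher and 1541 lower, with 82 and 122 reversals. At the threshold itself the members just inside were Cox6a1, Dis3l2 and Mysm1 (adjusted p = 0.0498 to 0.0499) and those just outside Ccne2, Fpgs and Arfip2 (0.05001 to 0.05041).

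**Figure D2:**
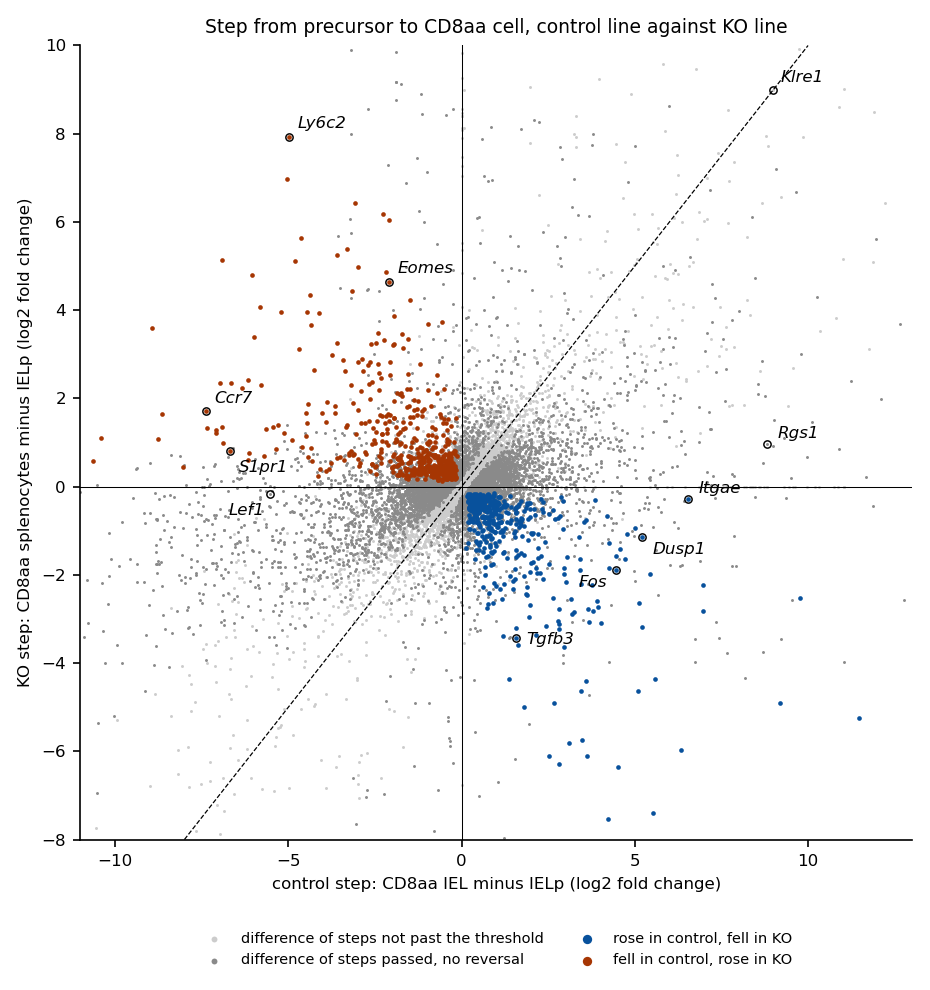
Log2 fold change from IELp to CD8aa cell in the control line (x axis) and the KO line (y axis), 1 point per gene, for 15673 genes whose steps had an SE under 2 and lay within the axes. Genes on the dashed line moved equally, reversed genes fill the upper left (547 genes, Ly6c2 and Ccr7 far out) and lower right (512 genes, Itgae and Dusp1 far out) quadrants, and 11 genes named in the text are circled.

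Ly6c2, Dnm3, Adgrb2 and Atp8b4 were among the reversed genes whose steps differed most. The stretch of 250 bases before an annotated start site of each is shown so that the ends of the divergence can be looked at in sequence, since they are genes that moved furthest apart. Sequences are from RefSeq on GRCm38.p6, and each reads 5′ to 3′ on the gene's strand and ends at the base before the start site. Capitals mark any match, on either strand, to TGTGGT (the RUNX core), TGANTCA (AP-1), TCACACCT (T-box) or CCACACCC (KLF). Of 32851 promoters in the table, 14.1%, 6.75%, 1.12% and 3.20% hold each of these in the same window.
Ly6c2 (chr15:75111972-75112221, minus strand, the first of 2 entries): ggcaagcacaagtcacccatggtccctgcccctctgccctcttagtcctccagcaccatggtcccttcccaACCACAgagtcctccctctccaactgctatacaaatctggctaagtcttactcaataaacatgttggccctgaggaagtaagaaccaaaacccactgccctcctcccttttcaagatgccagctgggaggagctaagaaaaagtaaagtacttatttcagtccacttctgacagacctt
Dnm3 (chr1:162478035-162478284, minus strand): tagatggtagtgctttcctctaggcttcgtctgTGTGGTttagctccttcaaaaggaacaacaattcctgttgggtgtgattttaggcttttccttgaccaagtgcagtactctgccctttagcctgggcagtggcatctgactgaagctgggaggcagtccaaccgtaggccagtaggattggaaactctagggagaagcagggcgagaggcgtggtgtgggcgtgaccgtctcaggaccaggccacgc
Adgrb2 (chr4:129984620-129984869, plus strand): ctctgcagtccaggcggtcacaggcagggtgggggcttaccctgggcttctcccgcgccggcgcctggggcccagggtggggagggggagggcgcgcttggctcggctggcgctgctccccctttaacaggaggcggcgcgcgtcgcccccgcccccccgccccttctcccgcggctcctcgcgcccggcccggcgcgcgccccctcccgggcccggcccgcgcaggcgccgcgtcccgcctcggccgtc
Atp8b4 (chr2:126491554-126491803, minus strand): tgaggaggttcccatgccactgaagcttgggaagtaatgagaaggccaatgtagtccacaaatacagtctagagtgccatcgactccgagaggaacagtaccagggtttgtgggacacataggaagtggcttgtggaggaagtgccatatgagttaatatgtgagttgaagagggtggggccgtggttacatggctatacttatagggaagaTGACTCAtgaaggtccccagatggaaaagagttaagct
Ly6c2 held 1 RUNX match on the opposite strand, 179 bases before the start, and Dnm3 held 1 on its own strand, 217 bases before the start. Atp8b4 held 1 AP-1 match that began 38 bases before the start. Its window lies inside the gene (chr2:126320973-126500674), so the start shown is an internal one. Adgrb2, whose window was 81.6% G or C, held none of the 4 motifs. A match is a description of letters, not a bound site, and nothing was measured here on binding.

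Ly6c2, which encodes a surface antigen of memory T cells and monocytes, had a far higher step in the KO line. Its levels were 8.39, 7.64 and 7.14 CPM in control IELp, 0.0614, 0.322 and 0.217 in control IELs, 3.37, 3.25 and 3.38 in KO IELp and 765, 757 and 740.2 in KO splenocytes. Every KO spleen library lay above every other library, and every control IEL library below every precursor library. The difference of steps was 12.91 ± 0.20 (log2 ± SE, adjusted p = 2.66e-16, edgeR), from -4.98 ± 0.22 in the control line and 7.93 ± 0.10 in the KO line. Ly6c2 shares reads with its near copy Ly6c1, so its level is uncertain.

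Dnm3, a dynamin that pinches membranes, ran the other way. It was read at 1.16, 0.470 and 0.295 CPM in control IELp, 44.6, 51.9 and 34.1 in control IELs, 0.594, 0.241 and 0.633 in KO IELp and 0 in all 3 in KO splenocytes. Its reads appeared in quantity in control IELs alone and were missing from KO splenocytes, where the fall was at least 8.59-fold if 3 counts are allowed to the empty group. Adgrb2, an adhesion receptor, was read at 13, 9.0 and 11.2 CPM in control IELp, 0 in all 3 in control IELs, 19.2, 21 and 15.9 in KO IELp and 34.9, 36.8 and 40.4 in KO splenocytes, so that control IELs fell at least 183-fold while KO splenocytes rose (1.11 ± 0.15). Atp8b4, a lipid flippase, averaged 13.8 ± 1.94 CPM in control IELp, 0.191 ± 0.190 in control IELs, 9.59 ± 0.766 in KO IELp and 149 ± 13.9 in KO splenocytes, with a difference of 9.87 ± 0.32 (adjusted p = 7.63e-13).

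Most genes that let T cells leave tissue and circulate had a higher step in the KO line. Of 15 tested members of the egress and recirculation list, 11 had a higher step in the KO line and 2 a lower one, with a median difference of 3.43 log2 (2.90 with members lacking counts in a group set at the floor of 3 counts), against 0.02 over all genes tested. In the control line 10 members fell, and 7 members reversed from a fall in the control line to a rise in the KO line. Counts of this list and of those that follow stand beside the shares over all tested genes, 24.2% higher and 22.5% lower. Members and lists were chosen with earlier results of these data known. The counts therefore only describe the lists, and no list was tested as a set. In bulk samples fewer cells of a type and less RNA per cell cannot be told apart, here and in the results that follow. Values of B cell markers that moved with these genes are those given above, and their part in these results was not tested.

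S1pr1, the receptor that draws T cells out of tissue toward blood (chr3:115710433-115715072, GRCm38), was read at 286, 285 and 258 CPM in control IELp, 2.64, 2.38 and 1.79 in control IELs, 249, 229 and 232 in KO IELp and 383, 388 and 385 in KO splenocytes. KO precursors held slightly less than control precursors, control IELs held the least and KO splenocytes the most. The difference was 7.49 ± 0.12 (adjusted p = 2.66e-16, edgeR), made of a control step of -6.68 ± 0.10 and a KO step of 0.81 ± 0.07. Ccr7, the receptor for lymph node chemokines, was read at 16.3, 15.6 and 19.9 CPM in control IELp, 0.184, 0 and 0.0543 in control IELs, 9.64, 14.2 and 13.9 in KO IELp and 31.5, 35.5 and 47.8 in KO splenocytes, and its difference was 9.09 ± 0.46 (adjusted p = 1.24e-10).

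Klf2, the factor that maintains S1pr1, fell in the control line from 352, 366 and 402 to 4.85, 5.98 and 5.70 CPM, and went from 329.5, 295 and 281 to 261, 266 and 265 CPM in the KO line. The KO step of -0.08 ± 0.07 missed the threshold in its own contrast (adjusted p = 0.375), so Klf2 diverged (5.74 ± 0.12, adjusted p = 2.34e-15) without a reversal. Klf3, a related repressor, reversed, with a control step of -3.31 ± 0.11 and a KO step of 1.39 ± 0.09. Il7r, the receptor for a survival cytokine of circulating T cells, also reversed, from -2.96 ± 0.16 to 0.47 ± 0.13.

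Receptors for epithelial adhesion and tissue residency ran the opposite way, with exceptions among integrins of circulating cells. Of 24 tested, 16 had a lower step in the KO line and 6 a higher one, with a median of -1.55 log2, and 4 rose in the control line and fell in the KO line while 5 did the reverse. Itgae encodes the alpha chain of the integrin that binds E-cadherin (chr11:73090583-73147446), and it was read at 53.2, 46 and 47.4 CPM in control IELp, 3774, 3857 and 3695 in control IELs, 55.4, 60.1 and 74.5 in KO IELp and 52.8, 46 and 45.4 in KO splenocytes. Control IELs stood alone at the top, and KO splenocytes sat just below their own precursors. The difference was -6.81 ± 0.14 (adjusted p = 1.47e-15), with a large control step (6.53 ± 0.11) and a small KO step (-0.29 ± 0.09).

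Rgs1, which dampens chemokine receptor signals, reached 6492, 6544 and 6205 CPM in control IELs from 17.5, 15.7 and 18 in their precursors, and rose from 18.6, 17.2 and 23 to 31.9, 35.4 and 39.5 CPM in the KO line. It thus rose in both lines, by 8.81 ± 0.11 and 0.96 ± 0.09, and the difference was -7.85 ± 0.14 (adjusted p = 4.24e-16). Its relative Rgs2 reversed, at 149.9 ± 4.98 CPM in control IELp, 434 ± 18.6 in control IELs, 163 ± 15 in KO IELp and 51.1 ± 3.95 in KO splenocytes, with a difference of -3.34 ± 0.11. Cdh1, or E-cadherin, was read at 369, 421 and 400.3 CPM in control IELs and at no more than 1.34 CPM in any other library. Among control IELs Cdh1 was highest in replicate 2, and the epithelial marker sum in replicate 3. Epithelial markers moved with the list as a whole, and their part in it was not tested.

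Among the members that went the other way, Itgal, the alpha chain of the integrin LFA-1, was read at 646, 624 and 605 CPM in control IELp, 60.8, 69.7 and 61.7 in control IELs, 543, 576 and 560.0 in KO IELp and 1185, 1189 and 1165 in KO splenocytes. It was lowest in control IELs and highest in KO splenocytes in every library, a reversal with a difference of 4.22 ± 0.08 (adjusted p = 1.03e-15).

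Chemokine receptors diverged mostly toward the KO line. Of 16 tested, 12 had a higher step there and 2 a lower one, with a median of 4.22 log2 (3.56 with the floor), and 4 reversed from a fall to a rise. Gpr15, a receptor that guides T cells to the colon, was read at 48.9, 46 and 51.4 CPM in control IELp, 12.1, 14.3 and 3.37 in control IELs, 23.3, 20.2 and 19 in KO IELp and 127, 133 and 148 in KO splenocytes. Replicate 3 of the control IELs was the lowest library, and KO splenocytes were the highest group, with a difference of 4.89 ± 0.38 (adjusted p = 2.81e-08). Cxcr4 fell in the control line and rose in the KO line (-4.61 ± 0.22 and 0.91 ± 0.15). Ccr9, the receptor for the chemokine of the small intestine, was one of the 2 that went lower: it was read at 265, 263 and 211 CPM in control IELs and at 35.9, 40.9 and 41.9 in KO splenocytes, where its step did not pass (adjusted p = 0.326), and the difference was -3.66 ± 0.14.

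Most cytotoxic granule and death-ligand genes had a lower step in the KO line. Of 24 tested, 18 had a lower step in the KO line and 1 a higher one, with a median of -0.86 log2. In the control line 23 rose and in the KO line 16. Gzma, a granule protease, was read at 3.07, 3.82 and 5.23 CPM in control IELp, 15251, 15043 and 14064 in control IELs, 1.72, 2.29 and 3.11 in KO IELp and 5.87, 4.55 and 18.1 in KO splenocytes. Gzmb, the protease that starts apoptosis in target cells, was read at 2.12, 2.23 and 3.98 CPM in control IELp, 14979.8, 14532 and 14996 in control IELs, 2.51, 4.27 and 3.48 in KO IELp and 45.8, 42.8 and 34 in KO splenocytes. Both proteases rose in both lines, by 12.10 and 12.66 log2 in the control line and by 1.98 and 3.69 in the KO line, so that the differences were -10.12 ± 0.78 and -8.97 ± 0.31 (adjusted p = 2.60e-08 and 1.22e-12). The KO spleen libraries spread from 4.55 to 18.1 CPM for Gzma. Prf1, the pore-forming perforin, had a difference of -2.82 ± 0.12, and Fasl, a death ligand, of -5.40 ± 0.17.

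Receptors of natural killer cells had a higher step in the KO line more often than all tested genes, and a lower one about as often. Of 32 tested, 11 had a higher step in the KO line and 7 a lower one (34.4% and 21.9%, against 24.2% and 22.5% of all tested genes). The median was 2.14 log2 (2.10 over the 29 members with a fold, at the floor), and 10 members had no counts in at least 1 group. Without IEL replicate 3 the counts were 13 and 6, and with limma on log2(FPM + 1) they were 18 and 7. Klra3, an inhibitory receptor for class I molecules, rose in both lines but further in the KO line, from 1.19, 0.722 and 0.949 to 75.5, 71.7 and 68.9 CPM, against 1.36, 1.53 and 1.47 to 11.2, 9.78 and 12.7 in the control line (difference 3.15 ± 0.27, adjusted p = 1.02e-07). Klra genes are near copies of each other, and reads may have been split among them. Cd244, a SLAM family receptor, rose in both lines but further in the control line, at 25.3 ± 1.05 CPM in control IELp, 791 ± 43.7 in control IELs, 17 ± 2.02 in KO IELp and 112 ± 5.62 in KO splenocytes (difference -2.39 ± 0.11). Klrb1 reversed, rising from 28.1, 27.1 and 31.2 to 49.6, 50.3 and 52.4 CPM and falling from 30.6, 27.3 and 30.01 to 15.9, 18.4 and 17.3 CPM. Cd96 rose from 503 ± 10.6 to 1419.6 ± 21.4 CPM in the control line and stood at 522 ± 28.7 and 483 ± 12.4 CPM in the KO line, a difference of -1.75 ± 0.07.

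Adaptors and kinases that carry receptor signals mostly had a lower step in the KO line, with 14 of 21 lower, 6 higher and a median of -0.53 log2. With total counts alone 11 were lower, and with limma on log2(FPM + 1) 12 were, with 6 higher in each. Cd3g, a signalling chain of the T cell receptor, reversed, at 920.5 ± 60.6 CPM in control IELp, 2290.5 ± 93.6 in control IELs, 798 ± 32.7 in KO IELp and 535 ± 20.7 in KO splenocytes (difference -2.04 ± 0.08, adjusted p = 6.34e-12). Plcg2, a phospholipase used by NK-type receptors, rose by 3.17 ± 0.07 in the control line and by 0.77 ± 0.07 in the KO line. Sh2d1b1, or EAT-2, an adaptor of SLAM family receptors, was read at 3.34, 3.29 and 2.95 CPM in control IELp, 46.8, 49.995 and 57.9 in control IELs, 2.84, 2.59 and 2.53 in KO IELp and 0.551, 0.635 and 0.893 in KO splenocytes, a reversal with a difference of -6.11 ± 0.26. It has a near copy beside it in the genome, so its reads are uncertain.

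**Figure D3:**
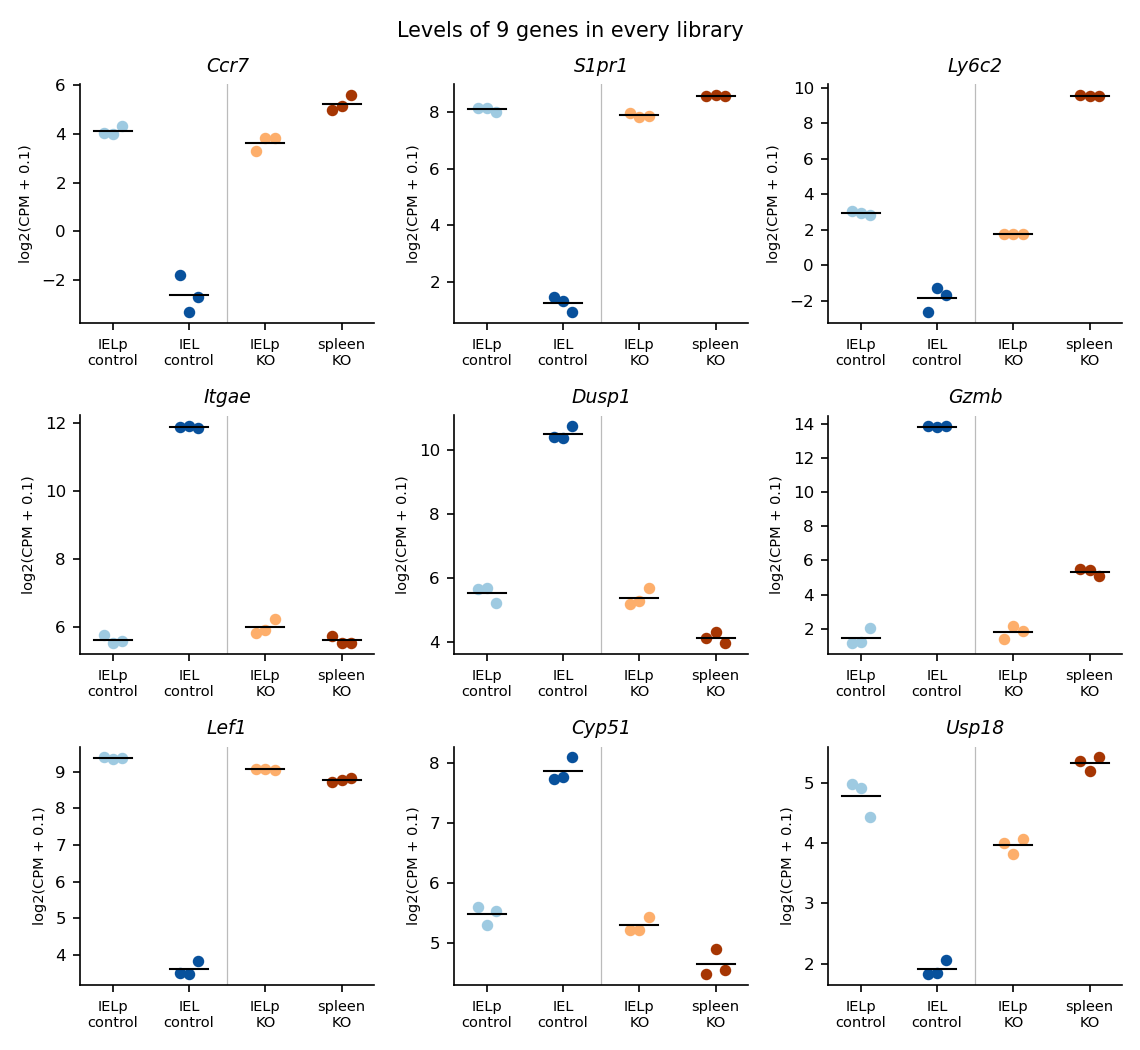
Levels of 9 genes in each of the 12 libraries as log2(CPM + 0.1), 1 point per library with the mean of each group as a bar, control line left and KO line right of the grey line. Ccr7, S1pr1, Ly6c2 and Usp18 are lowest in control IELs and highest in KO splenocytes, Itgae, Dusp1, Gzmb and Cyp51 are highest in control IELs, and Lef1 is lowest in control IELs.

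Transcription factors of naive and early T cells mostly had a higher step in the KO line. Of 23 tested, 15 had a higher step in the KO line and 5 a lower one, with a median of 0.87 log2, while 13 fell in each line. Lef1, a Wnt pathway factor of young T cells (chr3:131110471-131224356), was read at 675, 656 and 672 CPM in control IELp, 11.2, 10.9 and 14.1 in control IELs, 546, 538 and 528 in KO IELp and 426, 439 and 458 in KO splenocytes. It fell in both lines, with a control step of -5.53 ± 0.08 and a KO step of -0.17 ± 0.06, and the difference was 5.35 ± 0.10 (adjusted p = 1.06e-15). Its partner Tcf7 followed at a smaller size, with steps of -2.93 ± 0.05 and -0.31 ± 0.05. Satb1, a chromatin organiser of thymocytes, went from 399 ± 8.41 to 14.9 ± 0.849 CPM in the control line and from 479.9 ± 15.6 to 387 ± 5.94 CPM in the KO line (difference 4.28 ± 0.08).

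Effector and memory factors were mixed, with 7 of 24 higher and 11 lower (29.2% and 45.8%, against 24.2% and 22.5% of all tested genes). The median was -0.64 log2, and 14 were lower without IEL replicate 3. Eomes, a T-box factor of memory and NK-like T cells (chr9:118478212-118486132), was read at 5.94, 4.29 and 5.74 CPM in control IELp, 1.04, 1.03 and 1.03 in control IELs, 4.49, 4.40 and 3.11 in KO IELp and 94.1, 89.9 and 92.6 in KO splenocytes. The precursors of the lines overlapped, control IELs were lower than every precursor library, and KO splenocytes were higher than all. This reversal had a difference of 6.74 ± 0.24 (adjusted p = 2.51e-12). Bhlhe40, a factor linked to tissue-resident T cells, rose from 6.28, 6.06 and 6.48 to 241, 235 and 246 CPM in the control line, and from 3.17, 3.61 and 2.32 to 6.62, 6.30 and 6.77 CPM in the KO line (difference -4.28 ± 0.18). Litaf, an endosomal protein first described as a regulator of TNF, reversed at 117 ± 2.90 CPM in control IELp, 674 ± 3.65 in control IELs, 94.9 ± 2.20 in KO IELp and 54 ± 3.13 in KO splenocytes (difference -3.48 ± 0.08).

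Some large contrasts cannot be read from the difference of steps, because both precursor groups held no count. This was so for 90 tested genes, and none of them passed, since a fold from no counts has no estimate. Prdm1, which encodes the effector repressor BLIMP-1, was read at 192, 216 and 176 CPM in control IELs, at 0.752, 0 and 1.27 in KO splenocytes and at 0 in all 6 precursor libraries. Itga1, the alpha chain of a collagen-binding integrin of resident T cells, was read at 751, 830.4 and 663 CPM in control IELs and at 2.21, 4.87 and 2.08 in KO splenocytes, again from 0. Against the floor of 3 counts over a group, Itga1 rose at least 11210-fold in the control line and at least 53.0-fold in the KO line, and Prdm1 at least 2917-fold and 10.4-fold. Chosen after their values were seen, the protease Gzmk (118.6 ± 8.99 CPM in control IELs, 0.241 ± 0.209 in KO splenocytes) and Ahrr, the repressor of the aryl hydrocarbon receptor (68.8 ± 9.68 CPM and 0), were of the same kind. On log2(FPM + 1) with limma, an alternative read for these genes after the data were seen, their differences were -7.59 for Itga1, -6.94 for Prdm1, -6.60 for Gzmk and -6.12 for Ahrr, a scale that understates the change of low genes. With both precursor groups at 0, these values hold only the gap between control IELs and KO splenocytes. They therefore add no support to the levels above.

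Genes that report a strong antigen receptor signal split. Of 37 tested, 16 had a higher step in the KO line and 11 a lower one (43.2% and 29.7%), with a median of 0.39 log2. Cd5, a brake on receptor signalling and one of the proteins the precursors were sorted for, was read at 195, 198 and 189 CPM in control IELp, 0.492, 0.450 and 1.74 in control IELs, 222, 232 and 221 in KO IELp and 183, 189 and 179 in KO splenocytes. It fell in the control line and its KO step did not pass (adjusted p = 0.200), a difference of 7.25 ± 0.23 (adjusted p = 4.62e-13). Cd28, the costimulatory receptor, averaged 264 ± 23.9 CPM in control IELp, 0.254 ± 0.394 in control IELs, 193 ± 13 in KO IELp and 103 ± 1.61 in KO splenocytes, with a difference of 9.02 ± 0.31. Pdcd1, or PD-1, also a sorting marker of the precursors, fell in both lines, from 1448, 1489 and 1585 to 7.37, 5.92 and 6.79 CPM and from 1542, 1622 and 1481 to 173, 152 and 165 CPM (difference 4.42 ± 0.10). Tnfaip3, a brake on NF-kB, rose in the control line by 3.52 ± 0.10, its KO step of 0.21 ± 0.10 did not pass (adjusted p = 0.107), and the difference was -3.32 ± 0.14.

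Cytokine receptors leaned toward the KO line, with 17 of 27 higher, 7 lower and a median of 0.76 log2. Il18r1, the receptor for an inflammatory cytokine of memory and NK-like T cells, was read at 2.80, 2.59 and 3.39 CPM in control IELp, 0.307, 0.643 and 0 in control IELs, 0.660, 1.38 and 0.105 in KO IELp and 19, 19.4 and 23.3 in KO splenocytes. Its levels were low outside KO splenocytes, and the reversal had a difference of 7.97 ± 0.75 (adjusted p = 2.81e-07). Ifnar2, a chain of the type I interferon receptor, reversed at 71.6 ± 5.77 CPM in control IELp, 41.5 ± 0.652 in control IELs, 63.6 ± 4.33 in KO IELp and 132 ± 10.2 in KO splenocytes (difference 1.70 ± 0.12). Il17ra also reversed, with a small KO step of 0.22 ± 0.08 in which the stages overlapped. Tnfrsf1b, a TNF receptor, went the other way, at 753 ± 22.5 CPM in control IELp, 688 ± 4.96 in control IELs, 800.2 ± 26.9 in KO IELp and 283 ± 9.15 in KO splenocytes. Its KO fall was -1.39 ± 0.05, while its control step was 0.13 ± 0.05 with TMM scaling although its CPM was lower in IELs, so the sign of the control step depends on the scaling.

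TGF-beta and its targets help to install the epithelial program, and 13 of 21 tested members had a lower step in the KO line and 6 a higher one, with a median of -0.51 log2. Itgae and Cdh1, described above, are members of this list too. Tgfb3, a ligand, was read at 53.4, 51.7 and 47.4 CPM in control IELp, 122, 122 and 136 in control IELs, 49.8, 41 and 40.5 in KO IELp and 2.51, 4.45 and 4.47 in KO splenocytes. KO splenocytes held the least and control IELs the most, a reversal with a difference of -5.00 ± 0.20 (adjusted p = 9.96e-12). Smad3, which carries the signal to the nucleus, reversed the other way, at 135 ± 6.90 CPM in control IELp, 8.34 ± 0.739 in control IELs, 159 ± 13.2 in KO IELp and 213 ± 19.6 in KO splenocytes (difference 4.30 ± 0.13).

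The aryl hydrocarbon receptor senses ligands from food and microbes. Of 6 tested members of its pathway, 2 had a lower step in the KO line and 4 did not pass. Among these was Ahrr, whose fold cannot be estimated because it had counts in control IELs only, and with limma on log2(FPM + 1) 3 were lower and 1 higher. Ahr itself was read at 94.3, 79 and 110.0 CPM in control IELp, 130.3, 134 and 135 in control IELs, 132, 138 and 138 in KO IELp and 43.5, 41.5 and 41.8 in KO splenocytes. It rose in the control line and fell in the KO line, a difference of -2.33 ± 0.13 (adjusted p = 5.97e-10). Its target Tiparp reversed as well, at 19.7 ± 1.59 CPM in control IELp, 191 ± 10.01 in control IELs, 26.5 ± 2.55 in KO IELp and 13.9 ± 3.64 in KO splenocytes (difference -4.34 ± 0.19). Arnt, its partner, did not pass.

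Early-response and heat-shock genes, taken as 1 list of genes that respond to cell stress and tissue digestion, diverged too. Of 30 tested, 18 had a lower step in the KO line and 6 a higher one, with a median of -0.91 log2, and 6 reversed from a rise in the control line to a fall in the KO line. Fos, a subunit of AP-1, was read at 56.8, 48.9 and 24 CPM in control IELp, 801, 774 and 828 in control IELs, 43.5, 41.8 and 54 in KO IELp and 12.2, 10.1 and 12.6 in KO splenocytes. Dusp1, a phosphatase of stress kinases, was read at 50.8, 51.6 and 37.4 CPM in control IELp, 1341, 1315 and 1692 in control IELs, 36.2, 39 and 51.4 in KO IELp and 17.6, 19.8 and 15.6 in KO splenocytes. Control IELs were the highest group and KO splenocytes the lowest for both genes, with differences of -6.35 ± 0.30 and -6.35 ± 0.21 (adjusted p = 6.11e-11 and 1.04e-12). Junb, another AP-1 subunit, reversed with a control step of 3.85 ± 0.10 and a KO step of -0.29 ± 0.09. Dusp2, a nuclear phosphatase of activated lymphocytes, fell in both lines, with steps of -2.79 ± 0.08 and -0.19 ± 0.07. How cells were released from the tissues is not given in the sources used here, and the part of tissue handling in these values was not tested.

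Enzymes of cholesterol synthesis mostly had a lower step in the KO line. Of 28 tested members of the cholesterol and fatty acid list, 23 had a lower step in the KO line and 1 a higher one, with a median of -1.70 log2 (-1.89 over the 27 members with a fold). In the control line 23 members rose against 6 in the KO line, and 7 rose in the control line and fell in the KO line. Hmgcs1, the synthase that opens the pathway, was read at 99.6, 98.4 and 106 CPM in control IELp, 300.2, 294 and 347 in control IELs, 118, 118 and 133 in KO IELp and 88.5, 87.9 and 86.8 in KO splenocytes, a reversal with a difference of -2.27 ± 0.11 (adjusted p = 5.16e-11). Cyp51, a demethylase of lanosterol, was read at 48.5, 39.3 and 46.3 CPM in control IELp, 212, 217 and 272 in control IELs, 37.1, 37.3 and 43.4 in KO IELp and 22.3, 29.9 and 23.3 in KO splenocytes. Control IELs were the highest group and KO splenocytes the lowest, with a difference of -3.17 ± 0.18 (adjusted p = 6.40e-10). Lss and Msmo1, which act around it in the pathway, rose in both lines but less in the KO line (differences -2.69 ± 0.17 and -2.56 ± 0.15). Scd2, a fatty acid desaturase, fell in both lines, with a 95% interval of the difference from -0.15 to 0.23.

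Most interferon-response genes rose in the KO line, and the control line was split. Of 42 tested, 28 had a higher step in the KO line and 4 a lower one, with a median of 1.04 log2 (0.91 with the floor). In the KO line 37 rose, in the control line 21 rose and 18 fell, and 15 reversed from a fall in the control line. Usp18, which shuts off the interferon receptor, was read at 31.7, 30.3 and 21.7 CPM in control IELp, 3.44, 3.47 and 4.07 in control IELs, 16, 14 and 16.7 in KO IELp and 41.4, 36.6 and 43 in KO splenocytes. KO IELp lay below control IELp, control IELs were the lowest group, and the difference was 4.15 ± 0.22 (adjusted p = 2.07e-10). Ifit1, an antiviral RNA binder, reversed at 46.5 ± 11.1 CPM in control IELp, 8.80 ± 0.973 in control IELs, 21.4 ± 3.0 in KO IELp and 45.8 ± 8.41 in KO splenocytes (difference 3.36 ± 0.26). Oasl2, an antiviral relative of the oligoadenylate synthetases, reversed with a difference of 4.60 ± 0.33.

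Genes of class I presentation mostly had a higher step in the KO line. Of 23 tested members, 15 had a higher step in the KO line and 2 a lower one, with a median of 0.48 log2. H2-Q6, a class Ib gene, rose in both lines, from 315, 331 and 215 to 702, 706 and 799.8 CPM and from 86.8, 95.4 and 93 to 814, 809 and 903 CPM. Its CD8aa groups were at similar levels and the precursors differed, so the difference of 1.70 ± 0.16 came from the precursor end, and near copies make its reads uncertain. Psmb8, a subunit of the immunoproteasome, reversed with steps of -0.32 ± 0.06 and 0.59 ± 0.06. Tap1, the peptide transporter, had steps of 0.20 ± 0.07 and 1.0 ± 0.07, and in the control line its stages overlapped and its CPM was no higher in IELs.

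Most cell cycle genes fell in both lines and fell further in the control line. Of 31 DNA replication genes, 25 had a higher step in the KO line and 6 did not pass, with a median of 0.77 log2, and all 31 fell in the control line and 28 in the KO line. Of 30 mitosis genes, 24 were higher and 6 did not pass, with a median of 1.05 log2, and all 30 fell in both lines. Uhrf1, which copies DNA methylation at replication forks, was read at 151, 142 and 144 CPM in control IELp, 15.8, 19.9 and 18.3 in control IELs, 143, 164 and 149.7 in KO IELp and 107, 106 and 69.2 in KO splenocytes. Mcm3, part of the replicative helicase, had steps of -2.22 ± 0.09 and -0.85 ± 0.08. Top2a, a topoisomerase of dividing cells, had steps of -2.37 ± 0.09 and -1.0 ± 0.08, and Nusap1, a spindle protein, of -3.22 ± 0.14 and -1.50 ± 0.12. Mki67, the common marker of cycling cells, fell in both lines, with a difference of 0.34 ± 0.22 that did not pass (95% interval -0.13 to 0.81, adjusted p = 0.224).

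The other lists were as follows. Nuclear respiratory chain genes had 32 of 60 higher and 2 lower, with a median of 0.36 log2. Glycolysis had 11 of 23 higher and 5 lower, with a median of 0.22. T cell chemokines and cytokines had 7 of 19 higher and 3 lower, with a median of 0.49. GIMAP GTPases had 2 of 8 higher and 3 lower (25% and 37.5%), and the BCL2 family 3 of 16 higher and 4 lower (18.75% and 25%). Over all tested genes 24.2% were higher and 22.5% lower. Both BCL2 shares and the GIMAP share of higher members were near these, and the GIMAP shares rest on only 8 genes. With total counts alone 39 respiratory chain genes and 14 glycolysis genes were higher.

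**Figure D4:**
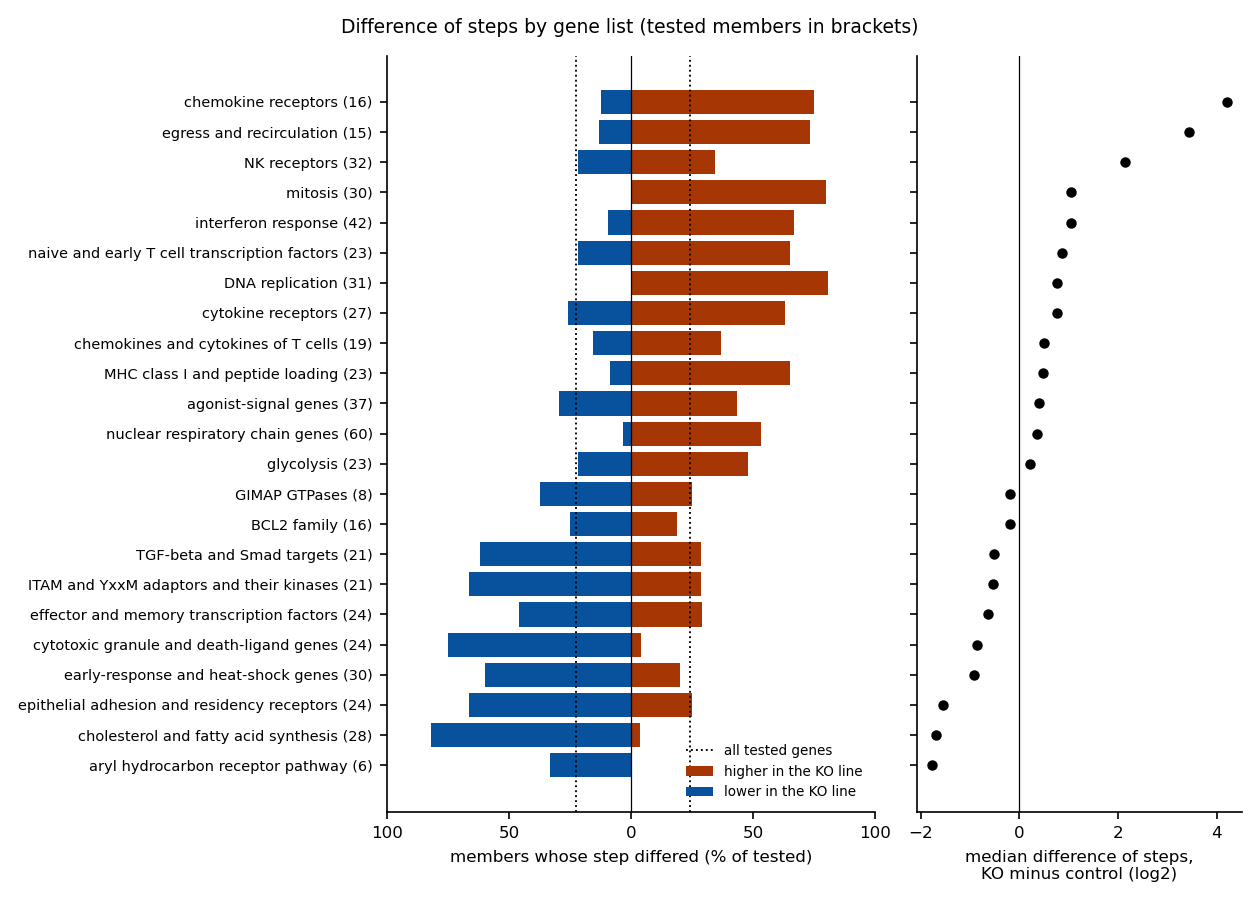
Share of tested members of each gene list whose step was higher (right, brown) or lower (left, blue) in the KO line, with dotted lines at the shares over all 15757 tested genes, 24.2% and 22.5%, and in the right panel each list's median difference of steps (log2). Bars reach furthest right for DNA replication and mitosis (25 of 31 and 24 of 30 members) and furthest left for cholesterol synthesis (23 of 28).

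Other genes among the largest differences fell outside the lists. Adgrg1, an adhesion receptor of cytotoxic lymphocytes, was read at 9.89, 7.53 and 6.11 CPM in control IELp, 71.6, 64 and 81.3 in control IELs, 24.8, 20.5 and 30.5 in KO IELp and 0.752, 1.59 and 0.298 in KO splenocytes. KO IELp held more than control IELp, and KO splenocytes held the least, a reversal with a difference of -8.10 ± 0.37 (adjusted p = 4.34e-11). St14, a membrane protease known from epithelia, reversed at 4.32 ± 0.150 CPM in control IELp, 34.6 ± 1.96 in control IELs, 1.42 ± 0.661 in KO IELp and 0.199 ± 0.227 in KO splenocytes (difference -6.10 ± 0.56). Ppp1r3b, which targets a phosphatase to glycogen, reversed at 10.1 ± 1.72 CPM in control IELp, 222 ± 12.6 in control IELs, 7.80 ± 1.12 in KO IELp and 2.31 ± 0.842 in KO splenocytes (difference -6.36 ± 0.25). Adrb1, an adrenaline receptor, was read at 82.3, 69.4 and 67 CPM in control IELs and at no more than 0.396 CPM in any other library. Glp1r, the receptor for an intestinal hormone, was read at 150.5, 167 and 124 CPM in control IELs, at least 2197-fold above control IELp, and had 2 counts in all 6 KO libraries.

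Not every large step diverged. Klre1, an NK-type receptor, rose from 0.751, 0.118 and 0.516 to 189, 189 and 193 CPM in the control line and from 0.132, 0.421 and 0.211 to 121, 122 and 128 CPM in the KO line, with a difference of 0.01 ± 0.13 (95% interval -0.28 to 0.29). Gimap3, a GTPase of lymphocyte survival, rose by 2.10 ± 0.07 and 2.13 ± 0.07 (interval of the difference -0.16 to 0.22). Lck, the coreceptor kinase, rose by 0.92 ± 0.06 and 0.83 ± 0.06 (interval -0.28 to 0.10), and Ifngr1, an interferon gamma receptor chain, by 1.95 ± 0.06 and 2.11 ± 0.06 (interval -0.01 to 0.33). Spry1, a brake on growth factor signals, fell in both lines, with steps of -6.60 ± 0.26 and -5.62 ± 0.24. The interval of its difference, 0.004 to 1.96, was wider, and the difference missed the threshold (adjusted p = 0.0933, edgeR). For Spry1 and Ifngr1 the call depended on the processing. Spry1 passed with DESeq2 (adjusted p = 0.0268) and without control IEL replicate 3 (adjusted p = 0.00186, edgeR). Ifngr1 passed with total counts alone (adjusted p = 0.0065, edgeR), and both passed with limma on log2(FPM + 1). In all, 3930 genes passed in the same direction in both lines.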

How the data were processed

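RNA of sorted mouse cells was made into 12 low-input libraries and sequenced as paired 76-base reads, per the labels' protocols. The deposited counts are raw reads per gene symbol. Per the submitters' processing notes the authors used bcl2fastq 2.17, Trimmomatic, STAR, HTSeq and DESeq2 with build mm10, in an order and with settings not given in the sources used here, as are annotation and strand setting, so overlapping genes and near copies are uncertain. The authors' deposited FPM table holds CPM values, counts scaled to a gene total of 1000000 per library. The 5 summary rows of the count table held 58.8 to 61.0% of reads and stayed out of library sizes and tests.

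Counts were fitted for all 4 groups with edgeR 4.0.16 in R 4.3.3 (filterByExpr, TMM factors, quasi-likelihood test, Benjamini-Hochberg adjustment over 15757 of 48663 genes, threshold 0.05). The fit was also run on simulated counts in which the precursor groups were equal and large steps were capped. The data differ from this, so that run is no check on the largest steps or on empty groups. CPM is printed without TMM factors, so fitted steps differ slightly from CPM ratios. Groups without counts were given 3 counts as a floor, and bounds cover counting error only. Alternatives were DESeq2 1.42.0, limma 3.58.1 on deposited FPM, other scalings and filters, a 1.5-fold test, a replicate block, and leaving out each library.

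Named genes were the 14 largest reversals each way and the 14 largest other differences each way, the 6 largest shared steps each way, up to 4 passing and 2 other members of each of 23 gene lists, and Zbtb7a, all but list members with a group mean of at least 20 CPM. T cell receptor and immunoglobulin segments, predicted genes, mitochondrial genes, Xist and Y-linked genes were left out of the ranked parts. The members and lists were chosen with earlier results of these data known. Some named genes are not reported here.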

Additional observations from a re-analysis of the deposited data

Results flagged for a closer look

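The steps of the lines differed by a test of the difference itself (quasi-likelihood test of edgeR, with the Benjamini-Hochberg adjusted p under 0.05, 3 libraries in each group). This held for 3809 genes with a higher and 3544 with a lower step in the KO line, and for the reversals, 512 genes that rose in the control line and fell in the KO line and 547 that did the opposite. Tissue and genotype cannot be told apart in any of them.

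Among the genes named above, the difference of steps (log2, KO minus control) was positive for the following. Of those with counts in every group, the size was largest for Ly6c2 (12.91), Atp8b4 (9.87), Ccr7 (9.09), Cd28 (9.02), Il18r1 (7.97) and S1pr1 (7.49). Next in size were Cd5 (7.25), Eomes (6.74), Klf2 (5.74), Cxcr4 (5.52), Lef1 (5.35), Gpr15 (4.89), Klf3 (4.70) and Oasl2 (4.60). Smaller values were those of Pdcd1 (4.42), Smad3 (4.30), Satb1 (4.28), Itgal (4.22), Usp18 (4.15), Il7r (3.43), Ifit1 (3.36) and Klra3 (3.15). Then followed Tcf7 (2.63), Dusp2 (2.60), Uhrf1 (2.18), Il17ra (1.77), Nusap1 (1.71), H2-Q6 (1.70), Ifnar2 (1.70) and Mcm3 (1.37). The list went on with Top2a (1.37), Psmb8 (0.92) and Tap1 (0.79).

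The difference was negative for the following. Of those with counts in every group, it was furthest below 0 for Gzma (-10.12), Adrb1 (-9.31), Cdh1 (-9.30), Gzmb (-8.97), Adgrg1 (-8.10), Rgs1 (-7.85) and Itgae (-6.81). Next below came Ppp1r3b (-6.36), Fos (-6.35), Dusp1 (-6.35), Sh2d1b1 (-6.11), St14 (-6.10), Fasl (-5.40), Tgfb3 (-5.00) and Tiparp (-4.34). Closer to 0 were Bhlhe40 (-4.28), Junb (-4.14), Ccr9 (-3.66), Litaf (-3.48), Rgs2 (-3.34), Tnfaip3 (-3.32), Cyp51 (-3.17) and Prf1 (-2.82). Closer still were Lss (-2.69), Msmo1 (-2.56), Plcg2 (-2.40), Cd244 (-2.39), Ahr (-2.33), Hmgcs1 (-2.27), Cd3g (-2.04) and Cd96 (-1.75). The values nearest 0 were for Klrb1 (-1.73) and Tnfrsf1b (-1.51). Genes with an empty group have only a bound, with 3 counts allowed to that group. The difference was at least 8.37 for Adgrb2 and at or below -9.31 for Dnm3, and Glp1r, with 2 counts in all KO libraries, is given by its levels alone.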

How the results depend on the processing

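Under a test against a 1.5-fold difference the calls fell to 1994 higher, 1541 lower, 82 rising then falling and 122 falling then rising. With a filter of 10 CPM in 3 libraries, which tested 10519 genes, 1232 genes were at least 2-fold higher and 1006 at least 2-fold lower. Leaving out each library in turn gave 3539 to 3988 higher, 3203 to 3540 lower, 401 to 524 rising then falling and 449 to 568 falling then rising. With a replicate block the counts were 3773, 3467, 492 and 523, and 2028 and 1548 at least 2-fold apart. Same-numbered libraries shared little: 1 of 18 such pairs correlated above 0.1 (-0.05 to 0.12). Yet 12 of 18 correlated best with their own number, so these values do not settle whether the numbers pair the libraries. Over 76 named genes and 22 settings, 1661 values kept direction and side of the threshold and 10 moved past it, for Spry1, Ifngr1 and Zbtb7a. Zbtb7a reached -0.34 (adjusted p = 0.0376) and Spry1 1.99 without control IEL replicate 3. The cause was not tested. Low counts limit folds of genes near 0 in a group.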

Other observations

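Most differences of at least 2-fold between the steps lay at the CD8aa end. Of 3629, 3486 had the larger gap between control IELs and KO splenocytes, and 143 (3.94%) had it between the precursors, where tissue is shared. Of the 143, 38 reached 20 CPM in a group, and those named here were chosen after their values were seen.

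Cd83, a surface protein of activated lymphocytes, averaged 20.7 CPM in control IELp, 2.16 in KO IELp, 3.31 in control IELs and 12.1 in KO splenocytes. Its precursor gap was -3.25 log2 (KO minus control) and its CD8aa gap 1.72. Il10ra, a chain of the interleukin 10 receptor, averaged 10.8 and 3.73 CPM in control and KO IELp, and 10.5 and 29.3 CPM in control IELs and KO splenocytes. Xcl1, a chemokine for dendritic cells, averaged 43.8 and 18 CPM in the precursors and 43.2 and 77.0 CPM in the CD8aa cells. Icos, a costimulatory receptor, averaged 55.5 and 27.2 CPM in the precursors and 5.16 and 10.5 CPM in the CD8aa cells.

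Class Ib genes formed part of the same set. H2-Q4, H2-Q5, H2-Q6 and H2-Q7 had precursor gaps of -0.97, -1.22, -1.64 and -1.27 log2, while their CD8aa gaps were 0.03, -0.05, 0.06 and -0.06 and none of those passed (adjusted p = 0.871, 0.740, 0.661 and 0.626, edgeR). These genes are near copies, so their reads are uncertain. Emid1 and Ehmt2 went the other way, with precursor gaps of 2.02 and 1.35 log2.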
